A study of Tupaia belangeri chinensis with 12 samples.

Results

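Cytosolic ribosomal proteins form the protein part of the small (RPS genes) and the large (RPL genes, with RPLP0, RPLP1 and RPLP2) ribosomal subunits, and their messenger RNAs are among the most abundant of any growing cell. Most of these messengers begin with a terminal oligopyrimidine (TOP) tract, through which mTOR signalling sets how strongly they are translated. Mammalian genomes also hold many processed copies of them, most without a known function. In the fetal cortex, radial glia divide in the ventricular zone, their progeny divide again in the subventricular layers, and postmitotic neurons settle in the cortical plate.

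The genes described here are those whose name in the deposited tables is a ribosomal protein symbol in its plain form, such as RPL8 or RPLP0. Kinases of ribosomal protein S6 and names that end in li and a number, such as RPL8li1, were left out by this rule. It found 75 genes among the 81418 gene IDs of the tables, 26 of the small and 49 of the large subunit. The names that end in li and a number are called copies below, after the base name they share; the sources used here do not explain the suffix. The tables held 1560 such copies of ribosomal protein names, and families with a copy but no plain-named gene, such as RPSA, RPS18 and RPS26, have no member by this rule.

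Poly(A) RNA was sequenced from layers cut by laser from Nissl-stained sections of fetal cortex of the Chinese tree shrew (Tupaia belangeri chinensis), a small mammal related to primates, with no genotype or treatment in the labels. The groups were the cortical plate (CP), the outer subventricular zone (OSVZ), the inner subventricular zone (ISVZ) and the ventricular zone (VZ), with 3 libraries each. By the labels all fetuses were at embryonic day 37, although day 35 stands in the names of the tables. It is not stated whether a layer's 3 libraries are 3 animals; p-values then measure only how far these samples spread, and part of that spread may be technical. Y-linked genes, given below, differed between the libraries numbered 1 and the others.

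Values are FPKM (fragments scaled by transcript length and by mapped fragments of the library) as the authors deposited them, multiplied by 1 factor per library (0.947 to 1.06) and called scaled FPKM here. FPKM holds no depth. The half-width of the bounds deposited beside it had a median of 8.12% to 13.9% of the value over genes at 1 or more, and of 5.31% to 7.62% over the ribosomal protein genes at that level. The marker lists followed the label of CP. There, all 6 radial glia, all 3 dividing-cell and both intermediate progenitor markers passed the test as lower than in the other layers' mean. All 5 neuron markers passed as higher. All 6 radial glia and all 3 dividing-cell markers were also lower in OSVZ than in VZ, and 4 of 5 neuron markers higher. The 2 intermediate progenitor markers did not separate OSVZ, ISVZ and VZ. They summed to 74.9 to 131 scaled FPKM in OSVZ, 66.4 to 154 in ISVZ and 81.0 to 163 in VZ. Between OSVZ and ISVZ, 1 radial glia marker passed as lower in OSVZ and 1 neuron marker as higher. The 3 choroid plexus markers found summed to 34.9 to 2594 scaled FPKM in the VZ libraries, against at most 50.3 in any library of the other layers, and VZ 1 and VZ 2 are therefore also left out below.

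The plain names did not, for the most part, carry the ribosomal protein signal. Only 25 of the 75 genes reached 1 scaled FPKM in at least 3 libraries, 11 of the small and 14 of the large subunit. Of the other 50, 28 were listed at 0 in all 12 libraries and 22 had some value, none above 1.32. The genes listed at 0 throughout include RPS6, the target of S6 kinase, RPLP0, the base of the ribosomal stalk, RPL4, RPL5 and RPL38, all of which every growing cell uses. These genes are therefore described as listed at 0, not as silent, and no fold was computed against them. The genes that passed, by contrast, included 9 that averaged 100 scaled FPKM or more, up to 1256 for RPS25.

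For 46 of the 50 genes below the filter, a copy of the same name passed it. Over 82 families formed by base name, the highest entry was a copy in 62 and the plain-named gene in 19. The plain-named gene held under 1% of its family's summed FPKM in 51 families. In RPS23 the plain-named gene was listed at 0 and RPS23li2 averaged 1366 scaled FPKM. In RPL38 the plain-named gene was likewise listed at 0, against 1337 scaled FPKM for RPL38li2. The largest family was RPL6, with 300 copies. Where a family's reads were divided among near-identical entries, the value of any single entry is uncertain.

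Gene order gave a way to tell which entry of a family lies at the place of the annotated gene. Of the 82 base names, 69 were found in the RefSeq gene table of the assembly TupChi_1.0, which was used for names and neighbours only. Up to 10 named protein-coding genes on each side in RefSeq were taken, and RPS3A and RPLP1 had only 4 in all. RefSeq scaffold names were not available, so a new stretch was assumed wherever the start positions fell. These neighbours were compared with the plain-named genes around every entry of the family in the deposited tables, and at least 2 shared neighbours were required. This placed 64 families, with 2 to 20 shared neighbours for the best entry and 0 for the next best in each. The entry so placed was plain-named in 14 families and a copy in 50, and it was the highest entry of its family in 61 of the 64. The exceptions were RPL9, RPS27A and RPL10. In RPL10 the placed entry, RPL10li5, shared only 2 neighbours and averaged 154 scaled FPKM, against 771 for the plain-named RPL10.

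**Figure D1:**
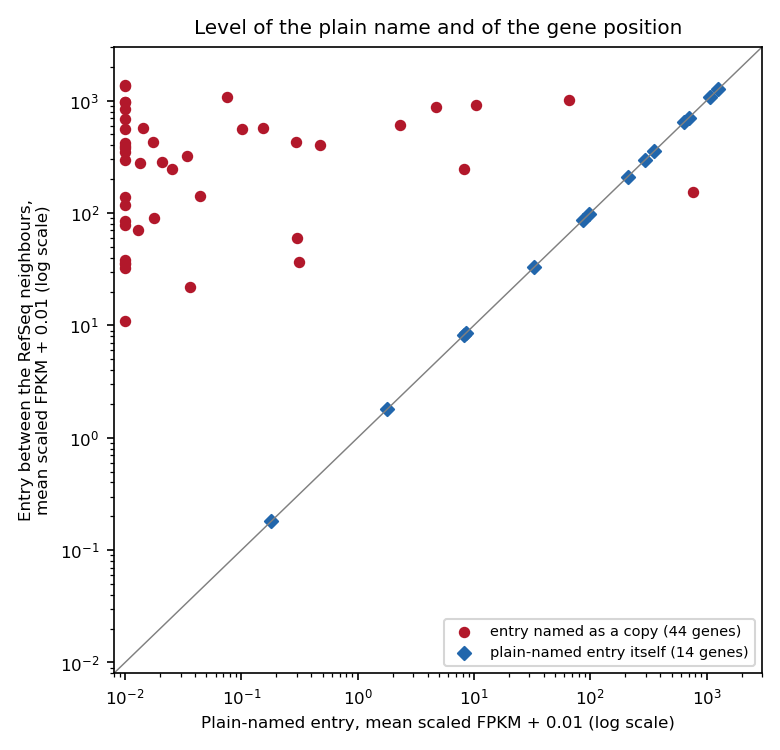
Mean scaled FPKM over 12 libraries of the plain-named ribosomal protein gene (horizontal axis) and of the entry between its RefSeq neighbours (vertical axis), both plus 0.01 on log scales, 1 point per family, with the line of equality. For 44 families the placed entry is a copy and most points lie far above the line at the left edge, where the plain name is at or near 0; for 14 the plain-named gene is the placed entry and lies on the line; RPL10 is the point below it.

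The same split ran through the 75 plain-named genes. The plain-named entry was the placed one for 14, of which 13 passed the filter and 7 averaged 100 or more, among them RPS25, RPS14, RPL11, RPL37, RPL8 and RPS3. The placed entry was a copy for 44, of which 7 plain-named genes passed: RPL10, RPL32, RPS2, RPL26, RPS19, RPL19 and RPS15. For 5 no entry was placed, and none of them passed. For 12 RefSeq has no gene under that symbol, and 5 of these passed: RPL35A, RPS21, RPL21, RPL7 and RPS24. Location on the chromosomes of the deposited tables differed as well. Chromosome 1 held 41 of the 75, of which 8 passed, and the other chromosomes 34, of which 17 passed. The RefSeq placement was added after the data were seen, and results for the 64 placed entries are given beside those for the plain-named genes.

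The level of the whole group was lowest in CP. Summed over the 75 genes, the 3 CP libraries held 5817, 5087 and 3708 scaled FPKM. The OSVZ libraries held 6746, 7332 and 5401, the ISVZ libraries 7461, 6449 and 6412, and the VZ libraries 6229.5, 5315 and 4775. CP 3 was the lowest of the 12, CP 1 and CP 2 lay within the range of VZ, and the ISVZ libraries all lay above the VZ libraries.

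The means were 4870.5 ± 1071 in CP, 6493 ± 990 in OSVZ, 6774 ± 595 in ISVZ and 5439.8 ± 735 in VZ (SD, n = 3 each). Without CP 3 the CP mean was 5452, which is level with VZ. As a share of all FPKM of a library the sums were 1.82% ± 0.346 in CP, 2.53% ± 0.333 in OSVZ, 2.58% ± 0.296 in ISVZ and 2.11% ± 0.219 in VZ. The copies held several times more and kept the same order, with 23688 ± 4121, 31449 ± 5024, 32607 ± 934 and 26282 ± 2199 scaled FPKM in CP, OSVZ, ISVZ and VZ. Plain-named genes and copies together made up 10.7% ± 1.497 of all FPKM in CP, 14.8% ± 1.93 in OSVZ, 14.99% ± 0.907 in ISVZ and 12.3% ± 0.751 in VZ. The plain-named genes were 16.2% to 18.4% of that joint sum in every library. In bulk tissue, fewer cells with high ribosomal protein RNA and less of it per cell cannot be told apart.

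**Figure D2:**
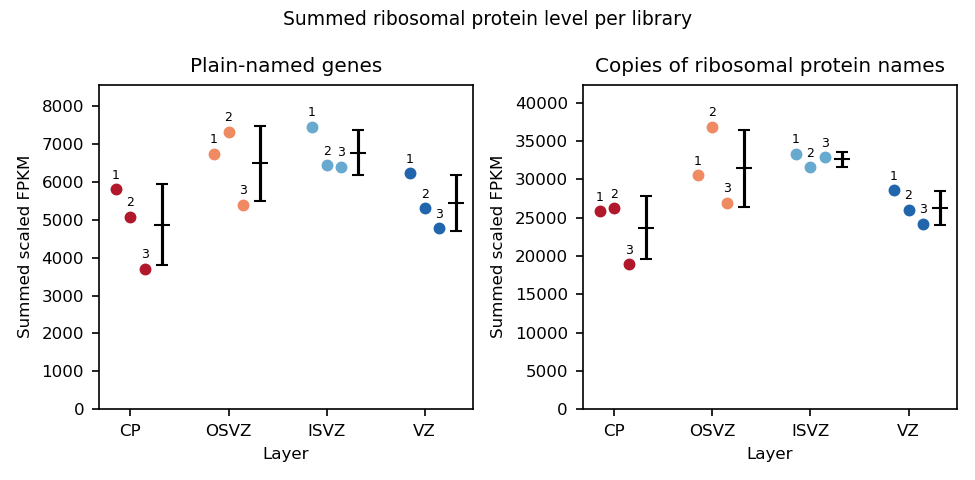
Summed scaled FPKM per library (vertical axis from 0) of the 75 plain-named ribosomal protein genes (left) and of the 1560 copies (right) in CP, OSVZ, ISVZ and VZ. Points are libraries with their number, and the bars to their right give mean ± SD of 3; in both panels CP 3 is the lowest library and the ISVZ mean the highest.

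The 5 highest plain-named genes each had their lowest layer mean in CP or VZ and their highest in OSVZ or ISVZ. RPS25, a protein of the small-subunit head (TSDBGID.4982, chromosome 10, 14006901 to 14008717 in the coordinates of the deposited tables, with no build named), had 1190.0, 1096 and 859 scaled FPKM in CP, 1249, 1595 and 1245 in OSVZ, 1493, 1426 and 1424 in ISVZ, and 1312, 1150.2 and 1034 in VZ. The ISVZ libraries lay above all VZ and CP libraries, and the CP libraries below all OSVZ libraries. CP minus the mean of OSVZ, ISVZ and VZ was -0.34 ± 0.13 on the log2(scaled FPKM + 1) scale (SE; limma, adjusted p = 0.0519), just short of the threshold of 0.05.

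RPS14, a small-subunit protein whose reduced dose contributes to the 5q- syndrome in people (TSDBGID.12545, chromosome 19, 36852148 to 36862933), had 1081, 978 and 625 scaled FPKM in CP, 1199.6, 1495 and 979 in OSVZ, 1322, 1284 and 1159.6 in ISVZ, and 988, 982 and 804 in VZ. CP 3 was far below every other library, and CP otherwise overlapped OSVZ and VZ. The difference of CP from the mean of the other layers was -0.36 ± 0.18 and did not pass (limma, adjusted p = 0.112).

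RPL10, which joins the large subunit late in its assembly (TSDBGID.6355, chromosome 11, 55538600 to 55539310), had 718, 867 and 584 scaled FPKM in CP, 829.8, 1052 and 765 in OSVZ, 851, 746 and 842 in ISVZ, and 721, 673 and 604 in VZ. All layers overlapped CP, while OSVZ and ISVZ lay above VZ in every library. Neither the difference of OSVZ from VZ, 0.40 ± 0.17 (limma, adjusted p = 0.109), nor that of CP from the rest, -0.12 ± 0.14 (adjusted p = 0.476), passed.

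RPL11, which with RPL5 and the 5S RNA forms a particle that binds MDM2 (TSDBGID.7624, chromosome 13, 90327017 to 90356522), had 598, 561 and 470.2 scaled FPKM in CP, 675, 817 and 629.9 in OSVZ, 778, 885 and 892 in ISVZ, and 715, 735 and 681 in VZ. Every CP library lay below every library of the other layers. The difference of CP from the mean of the other layers was -0.48 ± 0.11 on the log2 scale (limma, adjusted p = 0.00434), and this call held under all 22 alternatives.

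**Figure D3:**
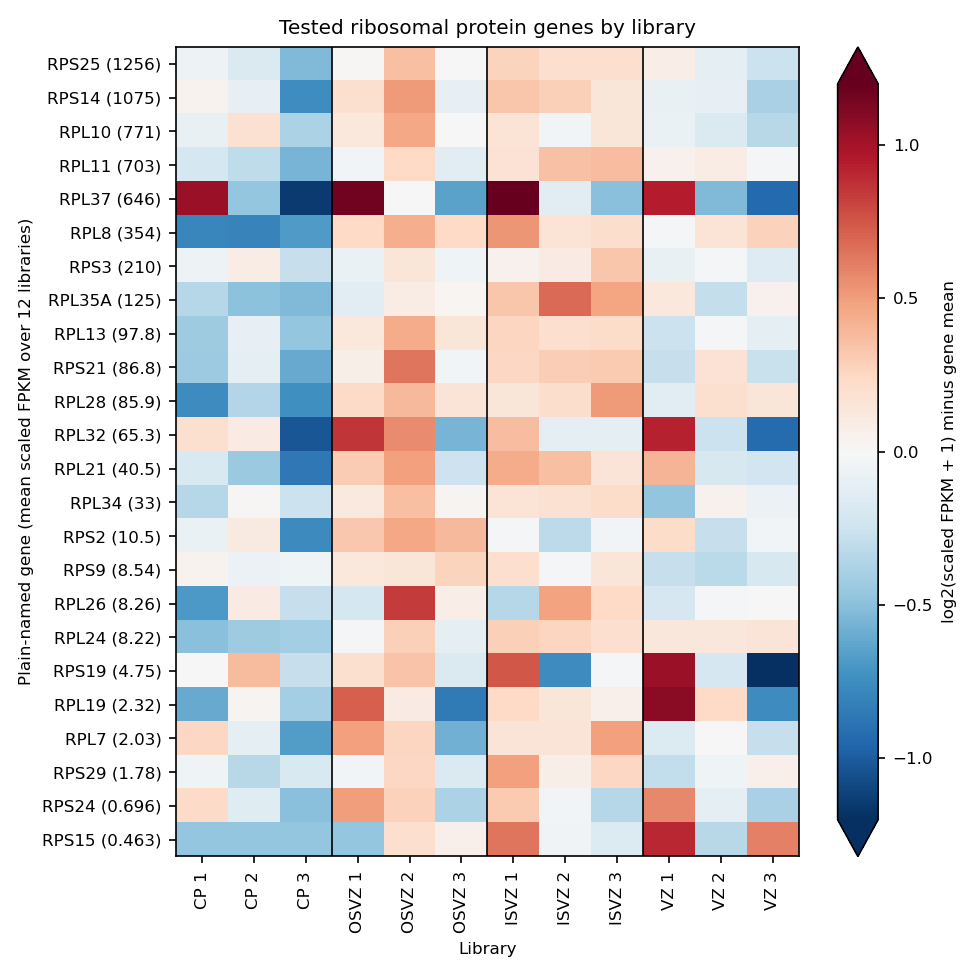
log2(scaled FPKM + 1) of 24 of the 25 tested plain-named ribosomal protein genes minus each gene's mean over 12 libraries (colour), genes in rows by falling mean level (in brackets) and libraries in columns in the order CP, OSVZ, ISVZ, VZ. The CP columns are mostly blue, CP 3 most of all, and RPL37 and RPL32 are split by library number within layers.

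Across the 4 layers, 9 of the 25 tested genes (36%) passed limma's moderated F test, against 51.8% of all 14101 genes tested. The lowest layer mean was CP in 20 of the 25 and VZ in the other 5, and the highest was ISVZ in 15, OSVZ in 7, VZ in 3 and CP in 0. RPS15 and RPS24, both lowest in CP, passed the filter only through libraries of the other layers. Of the 15 genes that averaged 20 scaled FPKM or more, 12 had their lowest value of all libraries in CP 3.

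In CP against the mean of OSVZ, ISVZ and VZ, 8 of the 25 genes fell and 0 rose (limma, adjusted p under 0.05). That is 32%, against 28.7% of all genes tested that were lower and 24.0% that were higher. With the library number added to the model, 14 fell (56%, against 31.0% of all genes in that fit); the labels do not say what the number marks. The log2 difference was negative in 24 of 25, with a median of -0.36 over the genes and of -0.05 over all genes tested. Among the 24, RPS15 and RPS24 passed the filter only through libraries outside CP, which favours a negative sign. Without CP 3 the median was -0.23 and 6 genes fell. The share of all genes that fell in that fit is not given here. The libraries did not overlap for 5 of the 25 (20%), against 19.4% of all genes tested. The large subunit had 7 of the 8, out of 14 tested, and the small subunit 1, RPS21, out of 11; whether the subunits differ was not tested.

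RPL8, a large-subunit protein next to the peptidyl transferase centre (TSDBGID.2756, chromosome 14, 191988 to 194028), had 196, 194 and 211 scaled FPKM in CP, 399.9, 457 and 400.2 in OSVZ, 489.8, 379 and 392 in ISVZ, and 335, 380.1 and 409.7 in VZ. The CP libraries lay close together and well below the lowest library of any other layer, and here CP 3 was the highest of the 3. RPL8 averaged 200.3 ± 9.31 in CP, 419 ± 33.1 in OSVZ, 420.3 ± 60.6 in ISVZ and 375 ± 37.6 in VZ (SD, n = 3 each). The log2 difference of CP from the mean of the other layers was -1.005 ± 0.10 (limma, adjusted p = 1.43e-05), and its adjusted p stayed between 9.27e-06 and 0.000189 over the 22 alternatives.

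RPL28, a large-subunit protein that budding yeast lacks (TSDBGID.18193, chromosome 28, 14558047 to 14568471), had 48.8, 65.0 and 49.3 scaled FPKM in CP, 97.2, 109 and 92.3 in OSVZ, 91.7, 96.0 and 119 in ISVZ, and 75.6, 95.3 and 91.7 in VZ. CP again lay below every other library, with a difference of -0.82 ± 0.12 (limma, adjusted p = 0.000174).

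RPL24, which bridges the subunits (TSDBGID.1426, chromosome 1, 41240876 to 41295407), is a low entry that varied little within layers. It had 5.39, 5.74 and 5.81 scaled FPKM in CP, 7.96, 10.1 and 7.42 in OSVZ, 10.1, 9.80 and 9.41 in ISVZ, and 8.93, 8.92 and 9.09 in VZ. The difference of CP was -0.60 ± 0.09 (limma, adjusted p = 0.000169), with no overlap between CP and the rest.

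RPL35A, a gene mutated in Diamond-Blackfan anaemia in people (TSDBGID.3475, chromosome 1, 17388395 to 17401837), had 95.4, 85.7 and 83.3 scaled FPKM in CP, 111, 129 and 123 in OSVZ, 152, 195 and 169 in ISVZ, and 132, 99.2 and 126 in VZ. ISVZ was highest and CP lowest, without overlap between either and the other layers. The difference of CP was -0.61 ± 0.11 (limma, adjusted p = 0.000678).

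The other 3 genes that fell in CP overlapped other layers in single libraries. RPL13, a large-subunit protein, had 71.2, 89.6 and 69.3 scaled FPKM in CP against 80.5 to 131 elsewhere, with a difference of -0.44 ± 0.10 (limma, adjusted p = 0.00361). RPL21, also of the large subunit, had 34.2, 28.3 and 21.1 in CP against 32.6 to 55.2 elsewhere, with a difference of -0.66 ± 0.19 (adjusted p = 0.0122). RPS21, of the small subunit, had 61.9, 77.7 and 54.9 in CP against 69.4 to 132 elsewhere, with a difference of -0.52 ± 0.16 (adjusted p = 0.0161).

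The calls for RPL8, RPL28, RPL24, RPL35A, RPL13 and RPL11 held under all 22 alternatives. RPL21 no longer passed without CP 3 (adjusted p = 0.0792) or with no filter on low values (adjusted p = 0.0508). RPS21 no longer passed without CP 3 (adjusted p = 0.0877), without CP 1 (adjusted p = 0.0584) or with no filter (adjusted p = 0.0583). The loci of 7 of these 8 genes, all but RPL11, overlap another named gene in the tables, and 16 of the 25 tested genes do. Whether strand was used in counting is not given in the sources used here. Reads of overlapping genes may not have been told apart.

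At the other end, RPS9 and RPS19 had the differences nearest to 0 between CP and the rest. RPS9, which lies near the entry of the messenger into the small subunit, had 8.77, 8.01 and 8.16 scaled FPKM in CP, 9.36, 9.47 and 10.4 in OSVZ, 9.87, 8.29 and 9.48 in ISVZ, and 6.82, 6.59 and 7.27 in VZ. CP lay between the subventricular layers and VZ, and its difference from the mean of the 3 was -0.03 ± 0.08 (limma, adjusted p = 0.747). The plain-named RPS19, the only gene with a positive difference, 0.05 ± 0.41, ranged from 1.18 to 9.88 within VZ alone, so no direction can be read from it.

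Of the 64 placed entries, 63 were tested, and 30 fell in CP and 0 rose (47.6%, against the 28.7% of all genes tested), with a negative difference in 61 and a median of -0.36. Without CP 3, 13 of these 30 still fell and 1 other entry, RPL26L1li1, rose (limma, adjusted p = 0.0382). The count was 16 with no filter on low values. The shares of all genes that fell in these 2 alternative fits are not given here, so the counts stand without a background. Both subunits took part, with 12 of 27 small-subunit and 18 of 36 large-subunit entries lower. Of the 50 placed entries that are named as copies, 25 fell.

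Among these copies, RPS27Ali1, which lies at the place of the gene for ubiquitin fused to a small-subunit protein, had 58.8, 52.9 and 25.05 scaled FPKM in CP against 61.5 to 91.8 elsewhere. Its difference was -0.86 ± 0.20 (limma, adjusted p = 0.00396). Another copy, RPS27Ali4, averaged 110 scaled FPKM and held 60.9% of this family. All entries of the family summed to 140, 146 and 142 in CP against 154 to 269 elsewhere, so RPS27Ali1 alone does not give the family's level. RPS11li8 had 201, 198 and 135 in CP against 247 to 412 elsewhere, a difference of -0.82 ± 0.15 (adjusted p = 0.000658). RPL13Ali3 had 645, 736 and 533 in CP against 899.7 to 1298 elsewhere, a difference of -0.75 ± 0.12 (adjusted p = 0.000322). In all 3, the CP libraries lay below all others.

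The copies placed for RPS6, the stalk proteins and RPSA varied in how far they fell. RPS6li10 had 946, 791 and 682 scaled FPKM in CP against 836 to 1201 elsewhere, with a difference of -0.34 ± 0.13 (limma, adjusted p = 0.0398). RPLP1li2 (-0.62 ± 0.17, adjusted p = 0.0107) and RPLP2li4 (-0.41 ± 0.15, adjusted p = 0.0339), both of the stalk that recruits elongation factors, passed as well. RPLP0li4 did not (-0.29 ± 0.14, adjusted p = 0.0991), nor did RPL5li46 (-0.16 ± 0.13, adjusted p = 0.306).

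RPSAli23, placed for the small-subunit protein once described as a laminin receptor, had 662, 661 and 411 in CP and 474 to 731 elsewhere, so the layers overlapped (-0.04 ± 0.15, adjusted p = 0.843). RPL4li7 likewise overlapped, with 658, 626 and 438 in CP and 496 to 635 elsewhere (0.02 ± 0.13, adjusted p = 0.883). In both, CP 1 and CP 2 were at the high end of the libraries and CP 3 was the lowest.

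**Figure D4:**
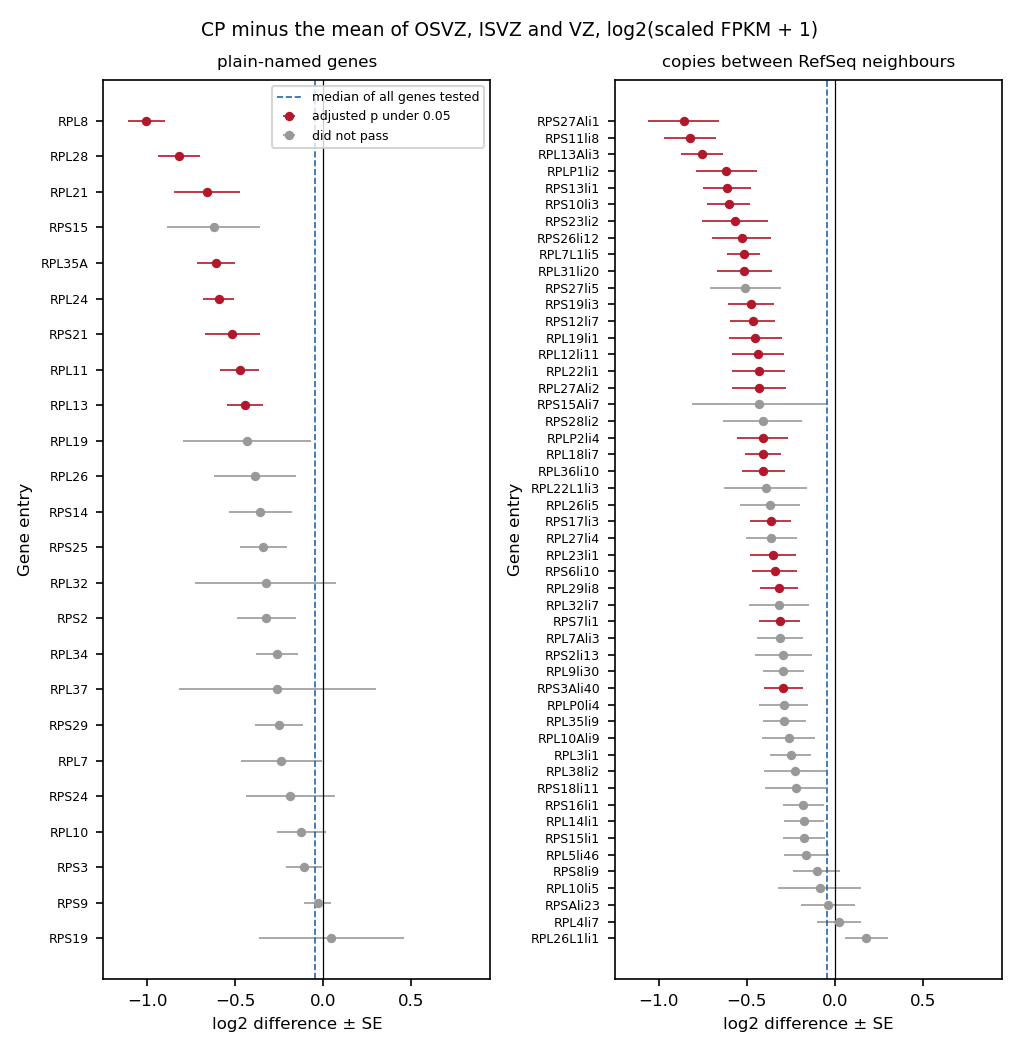
CP minus the mean of OSVZ, ISVZ and VZ on the log2(scaled FPKM + 1) scale (horizontal axis, point ± SE of the model) for 24 of the 25 tested plain-named genes (left) and the 50 placed entries named as copies (right). Red points passed at an adjusted p under 0.05 in limma and grey points did not; the dashed line is the median of all genes tested (-0.05), and nearly all points lie to its left, from RPL8 at -1.005 to RPL26L1li1 at 0.18.

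When the FPKM of all entries of each family were summed, 39 of the 78 tested families fell in CP and 0 rose (29.3% of all genes fell in that fit). Among the families, 30 of 78 passed the F test (54.2% of all genes in that fit), and against OSVZ 27 were lower in CP and 0 higher (18.1% and 14.5% of all genes). In OSVZ against VZ 9 families rose and 2 fell (12.4% and 17.2% of all genes), in OSVZ against ISVZ 0 passed in either direction (1.2% higher and 0.404% lower of all genes), and in ISVZ against VZ 3 rose and 0 fell (1.8% and 7.72% of all genes).

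Marker sums of some cell types lay higher in CP than in every library outside it, and those of others lay lower. Neuron markers summed to 973 to 1438 scaled FPKM in CP against 45.1 to 511 elsewhere, and radial glia markers to 21.7 to 40.1 in CP against 184 to 813 elsewhere. Microglia markers, all 5 lower in CP by the test, summed to 0.973 to 1.83 in CP against 6.74 to 25.8 elsewhere. Markers of the meninges, of which 1 of 2 tested, LUM, was higher in CP, summed to 14.2 to 19.0 in CP against 0.527 to 7.73 elsewhere. Endothelial markers, of which 1 of 4, CLDN5, was lower, summed to 9.62 to 17.5 in CP against 17.2 to 24.7 elsewhere. The part of these cell types in the ribosomal protein differences was not tested.

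Against OSVZ alone, CP was lower for 8 of the 25 plain-named genes (32%) and higher for 0. Of all genes tested, 17.3% were lower and 13.7% higher. The median was -0.40, against -0.04 for all genes. All 25 differences were negative, and the libraries did not overlap for 11 (44%), against 25.6% of all genes tested. The 25 include RPS15 and RPS24, which passed the filter only through libraries outside CP. The genes that fell were RPL8 (-1.06 ± 0.13, limma, adjusted p = 0.000154), RPL28 (-0.87 ± 0.15, adjusted p = 0.00133), RPL21, RPS2 (-0.64 ± 0.20, adjusted p = 0.0354), RPS21 (-0.61 ± 0.19, adjusted p = 0.0313), RPL13 (-0.57 ± 0.13, adjusted p = 0.00585), RPL24 and RPL35A. RPS2, at the entry of the messenger channel, had 9.57, 11.1 and 5.59 scaled FPKM in CP, against 13.0, 14.4 and 13.6 in OSVZ. The count was 4 without CP 3 and 4 without OSVZ 2, the lowest CP and the highest OSVZ library in summed level, 4 with no filter on low values, and 13 with the library number in the model. The calls for RPL8, RPL28, RPL13 and RPL24 held under all 22 alternatives. Of the 63 placed entries, 19 fell (30.2%, against 17.3% of all genes tested) and 0 rose. The count was 9 without CP 3, 11 without OSVZ 1, 9 without OSVZ 2 and 8 with no filter. It was 32 after quantile normalisation, 38 after scaling to equal totals and 35 with the library number in the model. Over all genes, 2113 fell after quantile normalisation and 2567 after scaling to equal totals, against 2446 in the main fit. With the library number in the model, 20.1% of all genes fell. This comparison and the one against the 3 layers share the CP and OSVZ libraries.

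Between the layers that hold progenitors, few of the plain-named genes passed. In OSVZ against VZ, 2 of the 25 rose (8%) and 0 fell, both below the 11.7% and 16.2% of all genes tested. The median was 0.22, against -0.02 for all genes. The libraries did not overlap for 4, RPL10, RPL13, RPS2 and RPS9, all higher in OSVZ (16%, against 19.8% of all genes tested that were higher and 24.4% that were lower). RPS9, whose values are given above, rose by 0.45 ± 0.10 (limma, adjusted p = 0.00535), with no overlap between OSVZ and VZ. The RPS9 locus overlaps 2 other named genes, and their reads may not have been told apart. RPL13 had 105, 131 and 106 scaled FPKM in OSVZ, against 80.5, 94.3 and 88.8 in VZ, and the difference of 0.37 ± 0.13 barely passed (adjusted p = 0.0478). The count was 1 when any 1 library other than CP 2 or CP 3 was left out. Without both VZ 1 and VZ 2, which held the most choroid plexus signal, the median was 0.35 over 23 tested genes. The lone VZ library was then assumed to vary like the other groups, so calls cannot be judged there.

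In ISVZ against VZ, 2 of 25 rose and 0 fell, against 1.54% and 7.18% of all genes tested, with a median of 0.29 against -0.01. Over all genes 217 were higher and 1012 lower, while quantile normalisation gave 370 higher and 795 lower, with the same sign for the median of the plain-named genes. RPL35A, whose values are given above, rose by 0.53 ± 0.13 (limma, adjusted p = 0.0320) and RPS9 by 0.37 ± 0.10 (adjusted p = 0.0354). The count was 0 without ISVZ 3, VZ 2 or VZ 3, and 1 without OSVZ 1, OSVZ 2, ISVZ 1, ISVZ 2 or VZ 1. Without both VZ 1 and VZ 2, which left 1 VZ library, the median was 0.42 over 23 tested genes. RPL35A then differed by 0.44 and RPS9 by 0.30. The libraries did not overlap for 14 of the 25 (56%), all higher in ISVZ, against 11.1% of all genes tested that were higher and 17.3% that were lower. RPS3, which guards the messenger entry and also binds DNA lesions, is 1 of them, with 217, 224 and 263 scaled FPKM in ISVZ and 197, 206 and 187 in VZ (0.25 ± 0.12, adjusted p = 0.262). Of the placed entries, 41 of 63 did not overlap and were higher in ISVZ, and 2 did not overlap and were lower. By the test, 2 passed (3.17%), both higher, against 1.54% of all genes tested, and the median was 0.30.

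In OSVZ against ISVZ, 0 of the 25 passed in either direction by limma, with 2 at an unadjusted p under 0.05 (8%, against 20% of all genes tested), RPL35A and RPS2. Of all genes tested, 0.482% passed as higher and 0.121% as lower. RPL35A differed by -0.50 ± 0.13 (adjusted p = 0.0754) and RPS2 by 0.51 ± 0.20 (adjusted p = 0.193), both without overlap of the libraries, as were 12.9% of all genes tested that were higher in OSVZ and 11.5% that were lower. The median was -0.05 and the median over all genes 0.00. A p that misses the threshold does not show that the levels were alike.

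Among placed entries, the OSVZ and VZ layers differed for 8: RPL38li2, RPS2li13, RPS19li3, RPS15li1, RPL18li7, RPS9 and RPL13 rose, and RPL7L1li5 fell. The 7 that rose are 11.1% of the 63 and the 1 that fell 1.59%, against 11.7% and 16.2% of all genes tested. RPL38li2, of a large-subunit gene known in the mouse for its part in translating Hox messengers, had 1558, 2069.9 and 1339.9 scaled FPKM in OSVZ, against 1189, 901 and 931 in VZ (0.70 ± 0.22, limma, adjusted p = 0.0323). RPL18li7 rose in both comparisons with VZ: it had 153, 189 and 146 in OSVZ, 169, 171 and 173 in ISVZ, and 119, 125 and 119 in VZ (0.42 ± 0.13 and 0.50 ± 0.13, adjusted p = 0.0296 in OSVZ and 0.0335 in ISVZ). The count of 7 that rose was 4 without CP 1, ISVZ 2 or ISVZ 3, 3 without OSVZ 1, 2 without VZ 1, and 1 without OSVZ 2, VZ 2 or VZ 3. Leaving out both VZ 1 and VZ 2 leaves 1 VZ library, so the calls cannot be judged there.

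Paralogs of standard ribosomal proteins were seen, if at all, through copies. The plain names RPL22L1, RPL7L1 and RPL10L were listed at 0 in all libraries, and RPL3L, RPL26L1 and RPS27L stayed below the filter. RPL3L, a muscle paralog of RPL3, had 0.0645 to 0.361 scaled FPKM over the 12 libraries. RPL22L1li3 had 7.91, 11.6 and 6.03 in CP, 5.91, 11.5 and 9.87 in OSVZ, 7.17, 9.02 and 13.0 in ISVZ, and 13.4, 22.4 and 14.7 in VZ. All VZ libraries lay above all others, yet the difference of OSVZ from VZ, -0.83 ± 0.29, did not pass (limma, adjusted p = 0.0531). RPL22li1, the entry placed for RPL22 itself, was lowest in CP, with 260.1, 201 and 205 there, 289, 363 and 213 in OSVZ, 357, 359.8 and 308 in ISVZ, and 308, 272 and 252 in VZ (CP against the rest -0.43 ± 0.15, adjusted p = 0.0300).

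RPL7L1li5, of a paralog of RPL7, was highest in VZ too. It had 24.8, 25.2 and 21.4 scaled FPKM in CP, 31.5, 30.2 and 25.03 in OSVZ, 31.8, 32.7 and 39.0 in ISVZ, and 40.4, 43.5 and 40.1 in VZ. No library of another layer reached those of VZ, and OSVZ was lower by the test (-0.51 ± 0.12, limma, adjusted p = 0.00782). RPL26L1li1 had 44.2, 45.3 and 31.9 in CP and 28.9 to 44.2 elsewhere and did not pass (0.18 ± 0.12, adjusted p = 0.246). Of the paralogs, RPL39L and RPS4Y1 have no plain-named gene among the 75.

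RPL37 (TSDBGID.2457, chromosome 11, 24497054 to 24499225) differed more by the number of the library than by layer. It had 1119, 395 and 245 scaled FPKM in CP 1, CP 2 and CP 3, 1222, 545 and 351 in OSVZ 1 to 3, 1273, 497 and 385 in ISVZ 1 to 3, and 1054, 379 and 286 in VZ 1 to 3. The 4 libraries numbered 1 held 1054 to 1273 and the other 8 held 245 to 545, so the 2 sets did not overlap, while the layers did. Within each number, OSVZ and ISVZ lay above CP and VZ. In the main fit, which leaves out the library number, the difference of CP from the rest was -0.26 ± 0.56 (limma, adjusted p = 0.721).

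Its copy RPL37li2 ran the other way. RPL37li2 had 82.5, 319.6 and 229 scaled FPKM in CP, 122, 465 and 317 in OSVZ, 99.6, 395 and 374 in ISVZ, and 98.9, 277 and 255 in VZ. In each layer the library numbered 1 was the lowest. The 2 entries summed to 1153 to 1372 in the libraries numbered 1, 656 to 1009.6 in those numbered 2 and 474 to 759 in those numbered 3.

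RPL32 and RPS24 were also highest in the library numbered 1 of every layer. RPL32 had 68.7, 109, 77.6 and 114 scaled FPKM in CP 1, OSVZ 1, ISVZ 1 and VZ 1, and 28.8 to 88.9 in the other libraries. RPL26 was lowest in the library numbered 1 of every layer, with 4.53 to 6.78 there and 6.35 to 14.9 in the others. The Y-linked gene DDX3Y was at 13.6 to 14.9 scaled FPKM in the 4 libraries numbered 1 and listed at 0 in the other 8, and KDM5D and UTY were likewise listed at 0 in those 8. Whether the number stands for an animal is not in the labels, and its part in these genes was not tested.

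**Figure D5:**
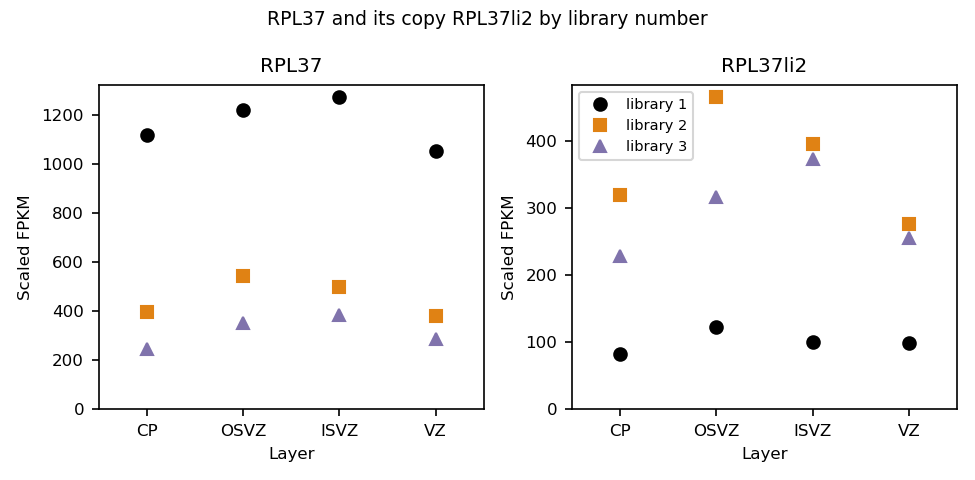
Scaled FPKM (vertical axis from 0) of RPL37 (left) and its copy RPL37li2 (right) in CP, OSVZ, ISVZ and VZ, with 1 symbol per library number. Libraries numbered 1 stand above the others for RPL37, at 1054 or more, and below them for RPL37li2, at 122 or less, in all 4 layers.

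The lists of other translation genes differed in how many members rose or fell in CP, and 24.0% of all genes tested rose and 28.7% fell there. Of 17 further TOP messengers, 14 were found by symbol, 6 of them listed at 0 throughout, and 7 were tested. EEF1B2, an exchange factor of elongation factor 1, rose in CP (0.38 ± 0.12, limma, adjusted p = 0.0182), 0 fell, and the median was -0.10. Against OSVZ alone, 0 rose and 1, EIF3F, fell in CP (-0.38 ± 0.13, limma, adjusted p = 0.0436), beside 13.7% and 17.3% of all genes tested. The median was -0.35, and the 14 genes summed to 1093 to 1342 scaled FPKM in CP against 1372 to 1519 in OSVZ. In OSVZ against VZ, 4 of the 7 rose and 0 fell, beside 11.7% and 16.2% of all genes tested. Among the 4 were EEF2 (0.48 ± 0.14, limma, adjusted p = 0.0278) and EIF3F (0.50 ± 0.13, adjusted p = 0.0132). GNB2L1, the scaffold of the small subunit also called RACK1, averaged 351 scaled FPKM in CP, 446 in OSVZ, 459 in ISVZ and 391 in VZ and did not pass in CP (-0.32 ± 0.18, adjusted p = 0.150).

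Of 25 tested initiation factors and regulators, 10 rose and 3 fell in CP against the other layers, beside the same 24.0% and 28.7% of all genes tested, with a median of 0.00. EIF4A2, an RNA helicase, rose by 0.65 ± 0.10 (limma, adjusted p = 0.000323). EIF4EBP2, an inhibitor of translation initiation under mTOR, fell by 0.84 on the log2 scale (limma, adjusted p = 2.3e-05). Of 5 elongation and release genes, 4 rose, led by EEF1E1 and EEF1A2, the form of elongation factor 1 alpha used in neurons. Of 24 ribosome assembly genes, 4 rose and 1, GAR1, fell, and of 9 mTOR pathway genes 0 rose and 2, TSC2 and RPS6KB2, fell. Of 60 mitochondrial ribosomal protein genes, 11 rose and 7 fell, with a median of 0.03, and of 52 oxidative phosphorylation genes 5 rose and 6 fell, with a median of 0.08. These counts stand beside 8 lower and 0 higher of the 25 plain-named cytosolic ribosomal protein genes; the difference between lists was not tested.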

How the data were processed

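The deposited file of each library, by the authors, gives FPKM per gene with a lower and an upper bound, and its columns follow the Cufflinks layout per the file headers. Per the submitters' processing notes, the tools were HISAT2 and Cufflinks. Versions, annotation, build and strand use: not given in the sources used here. Each table holds 81792 entries for 81418 gene IDs. Entries sharing an ID (360 IDs) were summed, and 4 IDs with a failed status were left out. Depth is unknown, and no interval could be given from it.

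A factor per library, the median ratio to the geometric mean over 10200 genes at or above 1 FPKM throughout, was applied. Genes at 1 scaled FPKM or more in at least 3 libraries (14101) were fitted with limma 3.58.1 in R 4.3.3 on log2(scaled FPKM + 1), with all 12 libraries in 1 model and an intensity trend. Adding 1 understates the change of low genes. P-values are two-sided and adjusted by Benjamini-Hochberg over all 14101 genes; differences are ± SE. The fit was tested on simulated data. A listed 0 can be a failed estimate.

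All genes of the rule could be named; per-library values are given for the 5 highest, for up to 5 on each side that passed without overlap in a comparison, for paralogs and for a fixed set of well-known genes. RPL32, RPS3, RPS9, RPS19, RPL26 and the copies named were chosen after their values were seen. Of the tested genes, 1, counted in the totals, is not reported here by name. The members and lists were chosen with earlier results of these data known. Alternatives were other scalings, pseudocounts and filters, copies summed by base name, a block for the library number, and libraries left out. For fits with libraries left out or other filters, the share of all genes called is not given.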

Additional observations from a re-analysis of the deposited data

How the results depend on the processing

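No scaling moved the median of all genes by more than 0.1 on the log2 scale. Leaving out each library in turn gave 7 to 10 plain-named genes that differed among the layers, 6 to 11 lower in CP than in the other layers, 4 to 9 lower in CP than in OSVZ, 1 to 3 higher in OSVZ than in VZ and 0 to 2 higher in ISVZ than in VZ. For the placed entries, which were added after seeing the data, it gave 13 to 33 lower and 0 to 1 higher in CP, 9 to 25 lower and 0 to 1 higher in CP than in OSVZ, 1 to 10 higher and 1 to 2 lower in OSVZ than in VZ, and 0 to 2 higher in ISVZ than in VZ. With copies summed, 71 of the families with a plain-named gene were tested, of which 27 differed among the layers, 36 were lower in CP, 23 were lower in CP than in OSVZ, and 9 were higher and 2 lower in OSVZ than in VZ. Summed scaled FPKM was then 25815 in CP, 34492 in OSVZ, 35834 in ISVZ and 28747 in VZ. With copies summed, RPS19 turned to -0.48 in CP (adjusted p = 0.00923) and RPS15 to 0.46 in OSVZ against VZ (adjusted p = 0.0330). Without a filter, 4 plain-named genes fell in CP against OSVZ, 1 rose in OSVZ and 1 in ISVZ against VZ, and of placed entries 16 fell in CP, 8 fell in CP against OSVZ, 1 rose in OSVZ and 1 in ISVZ against VZ. FPKM as deposited gave 1 plain-named gene higher in OSVZ and 1 in ISVZ than in VZ, and 3 and 1 placed entries. Equal totals gave 1 plain-named gene and 1 placed entry higher in ISVZ than in VZ, 38 placed entries lower in CP than in OSVZ, and 2 lower in OSVZ than in VZ. Quantile normalisation gave 32 placed entries lower in CP than in OSVZ. A pseudocount of 10 left 1 plain-named gene higher in OSVZ than in VZ, and it or a filter of 5 gave 2 placed entries lower there. Without VZ 1 and VZ 2, which left 1 VZ library, the median of the plain-named genes was 0.35 in OSVZ and 0.42 in ISVZ against VZ. The causes were not tested beyond what each setting changes by construction.

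With the library number as a replicate block, 14 plain-named genes fell in CP and 13 in CP against OSVZ (31.0% and 20.1% of all genes in that fit). Of placed entries 43 fell in CP, 35 fell in CP against OSVZ, 10 rose and 2 fell in OSVZ against VZ (13.7% and 18.2% of all genes) and 6 rose in ISVZ against VZ (2.63% of all genes). Deviations from the layer means of same-numbered libraries correlated at 0.0629 to 0.425 (16 of 18 pairs over 0.1) and of other pairs at -0.363 to 0.175; all 12 libraries correlated best with their own number on average, a hint from the data and not the design, since the labels do not say what the number marks. Read depth behind FPKM is unknown, so what it limits could not be computed.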
